A study of Mus musculus with 4 samples.

Results

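Chemokines are small secreted proteins that guide leukocytes, and atypical chemokine receptors are receptors that bind them without the usual G protein signal. The genes described here are the symbols in the count table that begin with Ccl or Cxcl followed directly by a digit, together with Cx3cl1, Xcl1 and Ackr1 to Ackr4, which makes 43 of 24421 symbols, 39 ligands and 4 atypical receptors. They were followed in FAPs (fibro-adipogenic progenitors, mesenchymal cells of the muscle interstitium) of wild-type mice, which had received a CSF1R inhibitor for 3 weeks and then a regular diet for 3 days. Muscle cells without CD31 and CD45 and with Sca1 were sorted by surface DPPIV, the protein of Dpp4, into DPPIV- FAPs and DPPIV+ FAPs, and each population of each of 2 mice gave 1 bulk RNA library, so that n = 2 mice per population in every comparison. The mice of the study were 7 to 24 weeks old, and the age of these 2 was not given in the sources used here. The labels name the tibialis anterior as the tissue, while the protocol describes muscle of both hindlimbs. All 4 libraries come from inhibited and withdrawn mice, so none shows these genes in untreated muscle. The samples are called mouse 1 and mouse 2 by the animal numbers in the labels.

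Reads counted on genes ran from 18240110 to 20879405 per library. Genes that reached 2 CPM (read counts scaled to the library total) in at least 2 libraries were tested by edgeR's quasi-likelihood method in a model with mouse and population, and p-values were adjusted over all 11588 of them by Benjamini and Hochberg's procedure. Differences are given as the log2 fold change of DPPIV+ over DPPIV- FAPs (log2FC) ± its standard error. The FAP markers Pdgfra, Dcn and Col1a1 had at least 21129 reads in every library, whereas the T cell marker Cd3e had at most 1 and the satellite cell marker Pax7 at most 10. Of the 6 FAP markers listed, edgeR and DESeq2 each called 3 higher and 3 lower in DPPIV+ FAPs. The 6 markers of other leukocytes, Cd3e among them, summed to between 12.1 and 23.2 CPM, and 2 of them passed the filter. The summed level of 6 macrophage markers lay between 54.3 and 92.3 CPM, that of 6 markers of blood endothelium between 35.3 and 72.3 CPM, and both were highest in the DPPIV- library of mouse 1.

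Chemokines of the CC family have adjacent first cysteines and those of the CXC family have a residue between them, and they act through conventional receptors named CCR and CXCR. Many are induced by inflammatory signals, whereas Cxcl12 and Cxcl14 are made steadily by many stromal cells. Atypical receptors take chemokines up and degrade or transport them, and DPPIV itself is a peptidase that removes the first 2 residues of several chemokines, CXCL12 among them.

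Of the 43 genes, 20 passed the filter, 19 of them with 2 CPM in all 4 libraries and Ccl27a in 3, so none passed through a single population. DPPIV+ FAPs held more reads of all 4 atypical receptors, of which Ackr1 shares sequence with Cadm3, and fewer of Cxcl14, the most abundant ligand in DPPIV- FAPs, and of Cx3cl1, Cxcl16 and Cxcl12. By edgeR's test, 8 genes were higher and 8 lower in DPPIV+ FAPs, and 4 were not called. Over all genes tested the share called was 33.0%, with 15.9% called higher and 17.2% lower. The median size of the log2FC without its sign was 0.64 for the 20 genes and 0.16 for all genes tested. DESeq2's Wald test called 12 of the 20, where it called 16.6% of all genes, and each of these 12 had the same direction in edgeR. Against a change of 1.5-fold, edgeR called 9 of them, where it called 9.42% of all genes. The same 9 (Ackr1 to Ackr4, Cxcl13, Cxcl14, Cx3cl1, Cxcl16 and Cxcl12) passed in all 12 alternative tests. The CPM of the populations did not overlap for 13 of the 20 genes, as for 56.3% of all genes tested. In bulk RNA, fewer cells that make a transcript and less of it per cell cannot be told apart.

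**Figure D1:**
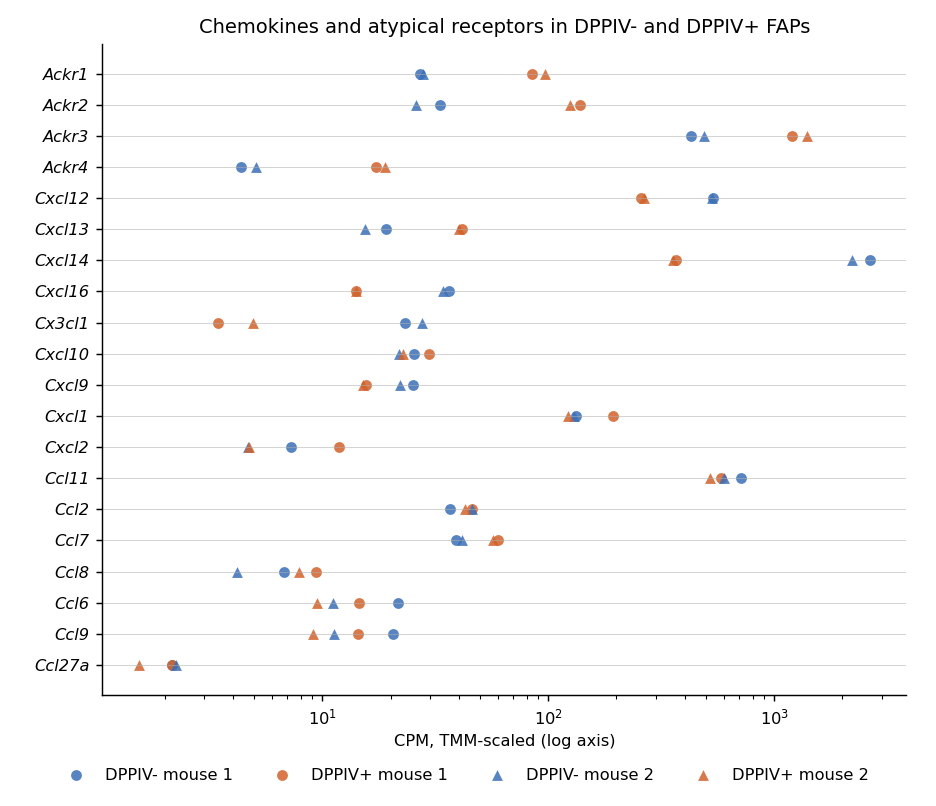
CPM of each of the 20 genes that passed the filter (horizontal, log axis, TMM-scaled), with 1 point per library, coloured by population and shaped by mouse. The 4 atypical receptors at the top lie to the right in DPPIV+ FAPs, Cxcl14 falls from 2645 and 2197 CPM to 368 and 355 CPM, and the points of Ccl2, Cxcl10 and Cxcl2 are mixed.

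Ackr3, which takes up CXCL12 and CXCL11 and does not couple to G proteins, was the most abundant receptor of the set. It had 429 CPM in the DPPIV- library of mouse 1 and 488 CPM in that of mouse 2, against 1193 and 1389 CPM in the DPPIV+ libraries. Both DPPIV+ libraries stood well above both DPPIV- libraries, at 1291 ± 138 CPM (SD, n = 2) against 459 ± 42.1 CPM (log2FC 1.49 ± 0.07, edgeR adjusted p = 4.06e-92). The log2 ratio was 1.48 in mouse 1 and 1.51 in mouse 2. Ackr3 (ENSMUSG00000044337.5) lies on chromosome 1 of GRCm38 from 90203980 to 90216751.

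Ackr2, a scavenger of inflammatory CC chemokines such as CCL2, CCL7 and CCL11, showed the largest rise of the 20 genes tested. Its level was 33.2 and 26.0 CPM in the DPPIV- FAPs of the 2 mice and 138 and 125 CPM in DPPIV+ FAPs. The populations were 4.45-fold apart in mean CPM (log2FC 2.16 ± 0.07, edgeR adjusted p = 4.51e-195), and the ratio was alike in both mice, 2.06 and 2.26 on the log2 scale. Ackr2 (ENSMUSG00000044534.8) lies on chromosome 9 from 121898355 to 121911074.

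Ackr4, which clears CCL19, CCL21 and CCL25, was the rarest of the 4 receptors. Its reads numbered 91 and 99 in DPPIV- FAPs and 311 and 344 in DPPIV+ FAPs, or 4.35 and 5.06 CPM against 17.3 and 18.9 CPM. The fitted log2FC was 1.94 ± 0.16 (edgeR adjusted p = 2.78e-34). On the opposite strand Ackr4 (ENSMUSG00000079355.5, chromosome 9, 104084157 to 104126933) shares 479 exon bases with Acad11, whose 249 to 282 reads per library did not follow it (log2FC 0.19, edgeR adjusted p = 0.296). Of the ligands it clears, Ccl21a, Ccl21b and Ccl21c had no read under their own symbols, and Ccl19 and Ccl25 stayed under the filter.

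Ackr1, the Duffy antigen, carries chemokines across venular endothelium and is otherwise known from red cells. Its symbol was given 563 and 545 reads in DPPIV- FAPs and 1528 and 1767 in DPPIV+ FAPs (log2FC 1.73 ± 0.07, edgeR adjusted p = 8.09e-121). This gene (ENSMUSG00000037872.5, chromosome 1, 173331886 to 173333750) shares 361 exon bases on the same strand with Cadm3, a cell adhesion gene, and RefSeq's span of Cadm3, from 173331892 to 173368139, covers nearly all of it. Cadm3 had 5442 and 4858 reads in DPPIV- FAPs and 14632 and 14451 in DPPIV+ FAPs, a log2FC of 1.66. The reads of Ackr1 were 10.3% of those of Cadm3 in DPPIV- FAPs of mouse 1, 11.2% in those of mouse 2, and 10.4% and 12.2% in the DPPIV+ libraries. By these counts, RNA of Ackr1 cannot be told apart from transcripts of Cadm3 that run into it. Of the 6 markers of blood endothelium, 5 passed the filter, edgeR called those 5 lower in DPPIV+ FAPs and DESeq2 called none, and the part of endothelial cells in the reads of Ackr1 was not tested.

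Without Ackr1, the summed level of the receptors was 466 and 520 CPM in DPPIV- FAPs and 1349 and 1533 CPM in DPPIV+ FAPs, 2.92-fold higher in the mean.

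**Figure D2:**
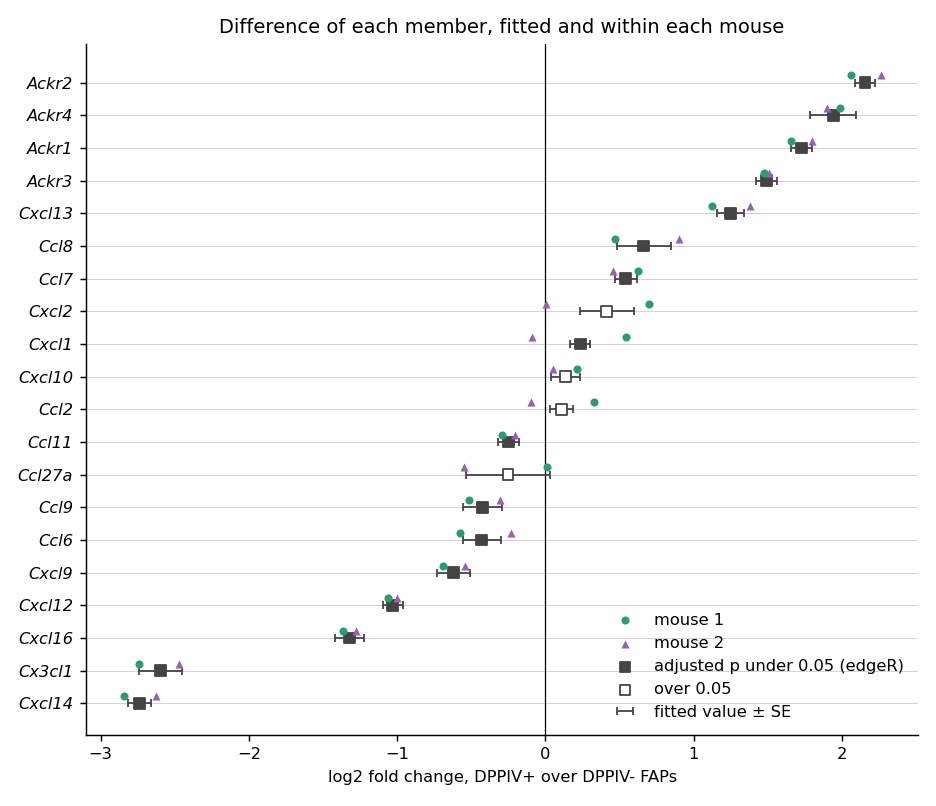
Log2 fold change of DPPIV+ over DPPIV- FAPs for the 20 genes, as the fitted value with its standard error (squares, filled where edgeR's adjusted p was under 0.05) and as the ratio within each mouse (circles and triangles). The mice lie close together from Ackr2 to Cxcl13 at the top and from Cxcl9 to Cxcl14 at the bottom, and on opposite sides of 0 for Cxcl1, Ccl2 and Ccl27a.

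Cxcl14, a chemokine of many epithelia and stromal cells, was the most abundant ligand in DPPIV- FAPs and the gene of the set with the largest fall. It had 2645 and 2197 CPM in the DPPIV- libraries of mouse 1 and mouse 2, and 368 and 355 CPM in the DPPIV+ libraries. The mean was 6.69-fold lower in DPPIV+ FAPs (log2FC -2.74 ± 0.08, edgeR adjusted p = 5.41e-259), with -2.84 and -2.63 within the mice. Cxcl14 (ENSMUSG00000021508.11) lies on chromosome 13 from 56288643 to 56296551.

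Cxcl12, the ligand of CXCR4 that also binds ACKR3, was lower by a smaller step. Its level was 534 and 527 CPM in DPPIV- FAPs and 256 and 264 CPM in DPPIV+ FAPs. The 2 mice differed by far less than the populations, and the fitted log2FC was -1.03 ± 0.07 (edgeR adjusted p = 1.70e-48). Cxcl12 (ENSMUSG00000061353.11) lies on chromosome 6 from 117168535 to 117181367. Set side by side per kilobase of exon, the level of Ackr3 was 1.96 and 2.26 times that of Cxcl12 in the DPPIV- libraries of mouse 1 and mouse 2, and 11.4 and 12.8 times in the DPPIV+ libraries. The order in DPPIV- FAPs rests on the length used, the union of all annotated exons, 8176 bases for Cxcl12 and 3348 for Ackr3. In CPM, Cxcl12 stood above Ackr3 in both DPPIV- libraries (534 and 527 against 429 and 488), and below it in both DPPIV+ libraries.

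Cx3cl1 and Cxcl16 are the chemokines that are made as membrane proteins and shed by proteases, and both were lower in DPPIV+ FAPs. Cx3cl1 (ENSMUSG00000031778.13, chromosome 8, 94772009 to 94782427) went from 483 and 537 reads in DPPIV- FAPs to 62 and 90 in DPPIV+ FAPs, or 23.1 and 27.5 CPM against 3.44 and 4.94 CPM. Its log2FC was -2.59 ± 0.14 (edgeR adjusted p = 1.87e-69). Cxcl16 (ENSMUSG00000018920.11, chromosome 11, 70453983 to 70459984) had 36.4 and 34.0 CPM against 14.1 and 14.0 CPM (log2FC -1.32 ± 0.10, edgeR adjusted p = 1.38e-37). Cxcl16 shares 552 exon bases with Zmynd15 on the opposite strand, and that gene had 106 and 101 reads in the DPPIV- libraries against 43 and 40 in the DPPIV+ libraries, where Cxcl16 had 761 and 665 against 254 and 256. Zmynd15 had a log2FC of -1.16, and if reads were counted without their strand those of the shared bases cannot be told apart. The shedding proteases Adam10 and Adam17 rose in DPPIV+ FAPs, by a log2FC of 0.36 and 0.29 (edgeR adjusted p = 2.48e-07 and 8.73e-05).

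Cxcl13, the B cell attractant of lymphoid stroma, was higher in DPPIV+ FAPs, unlike Cxcl12, Cxcl14 and Cxcl16. It had 19.0 and 15.4 CPM in DPPIV- FAPs and 41.5 and 40.3 CPM in DPPIV+ FAPs, with no overlap. The fitted log2FC was 1.25 ± 0.09 (edgeR adjusted p = 1.38e-39). Cxcl13 (ENSMUSG00000023078.6) lies on chromosome 5 from 95956951 to 95961068, and Cxcl17, the fifth of this group, had no read.

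The mural markers fell with these ligands: edgeR called 5 of 6 lower in DPPIV+ FAPs and DESeq2 3, among them Notch3 (log2FC -1.60, edgeR adjusted p = 7.35e-32) and Cspg4 (-1.27, 2.88e-60). Their summed level was 121 and 123 CPM in the DPPIV- libraries and 51.2 and 63.5 CPM in the DPPIV+ libraries. The 3 tenocyte markers rose, from 29.0 and 35.3 CPM in sum to 60.1 and 105 CPM. The part of either cell type in the values of the chemokines was not tested.

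The 39 ligands summed to 4291 and 3703 CPM in the DPPIV- libraries and to 1664 and 1501 CPM in the DPPIV+ libraries, a 2.53-fold lower mean. Without Cxcl14 the sums were 1646 and 1506 CPM against 1296 and 1145 CPM, 1.29-fold lower. Cxcl14 made up 61.6% and 59.3% of the ligand level in DPPIV- FAPs and 22.1% and 23.7% in DPPIV+ FAPs, where Ccl11 took the largest share, 34.8% and 34.7%.

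**Figure D3:**
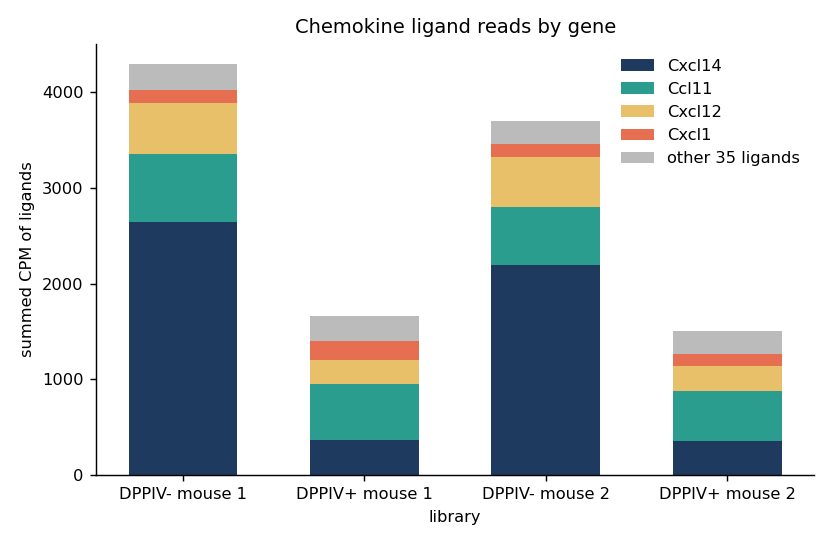
Summed CPM of the 39 ligands in each library (vertical, from 0), divided into Cxcl14, Ccl11, Cxcl12, Cxcl1 and the other 35 ligands. The bars of DPPIV- FAPs reach 4291 and 3703 CPM and those of DPPIV+ FAPs 1664 and 1501 CPM, and the part that shrinks most is Cxcl14.

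Per kilobase of exon, the order of the levels in DPPIV- FAPs began with Cxcl14 at 1325 CPM per kb, Ccl11 at 605 and Ackr3 at 137. In DPPIV+ FAPs it began with Ccl11 at 508 CPM per kb, Ackr3 at 386 and Cxcl14 at 198. Among the 23376 genes with a length, Cxcl14 moved from rank 9 to rank 176 and Ackr3 from rank 237 to rank 92.

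The 250 bases before the start site are shown for 2 receptors that rose and 2 ligands that fell, and for Cxcl1, whose mice differed in direction. They are from RefSeq on GRCm38.p6 and lie at chr9:121898105-121898354 (plus strand), chr1:90203730-90203979 (plus), chr13:56296552-56296801 (minus), chr6:117168285-117168534 (plus) and chr5:90890995-90891244 (plus). Capitals mark matches, on either strand, to the TATA box TATAAA, the GC box GGGCGG or the NF-κB consensus. Each reads 5′ to 3′ along its gene.
Ackr2: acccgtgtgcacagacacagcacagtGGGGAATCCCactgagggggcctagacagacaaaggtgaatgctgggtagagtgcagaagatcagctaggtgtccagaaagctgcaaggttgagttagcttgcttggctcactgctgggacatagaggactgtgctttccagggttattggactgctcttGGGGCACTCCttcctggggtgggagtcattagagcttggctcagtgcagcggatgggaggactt
Ackr3: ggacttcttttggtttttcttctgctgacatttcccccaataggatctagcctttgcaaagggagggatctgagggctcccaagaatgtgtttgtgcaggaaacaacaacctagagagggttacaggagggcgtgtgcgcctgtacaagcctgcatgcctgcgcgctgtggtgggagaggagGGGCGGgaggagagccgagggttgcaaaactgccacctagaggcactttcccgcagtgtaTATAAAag
Cxcl14: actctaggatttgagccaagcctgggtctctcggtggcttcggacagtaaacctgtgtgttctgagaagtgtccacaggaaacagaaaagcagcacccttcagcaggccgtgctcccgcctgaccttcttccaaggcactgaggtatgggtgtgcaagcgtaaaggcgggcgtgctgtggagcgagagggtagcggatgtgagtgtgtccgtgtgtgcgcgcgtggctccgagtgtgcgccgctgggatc
Cxcl12: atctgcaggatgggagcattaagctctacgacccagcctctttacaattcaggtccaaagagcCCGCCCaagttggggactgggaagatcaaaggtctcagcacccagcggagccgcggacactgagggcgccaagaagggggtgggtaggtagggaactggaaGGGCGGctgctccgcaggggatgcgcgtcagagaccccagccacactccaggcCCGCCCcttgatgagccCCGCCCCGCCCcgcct
Cxcl1: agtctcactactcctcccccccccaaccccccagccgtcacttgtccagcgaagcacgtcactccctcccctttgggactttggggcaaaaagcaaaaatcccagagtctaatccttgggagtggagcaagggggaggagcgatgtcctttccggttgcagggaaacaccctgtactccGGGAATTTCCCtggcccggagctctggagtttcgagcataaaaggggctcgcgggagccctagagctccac

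The window of Cxcl12 held 5 GC box matches, the last pair overlapping, whereas that of Cxcl14 held none of the 3 motifs. In the Ackr3 window stood 1 GC box match and 1 TATAAA match, which ended 2 bases before the start site. The Ackr2 window held 2 NF-κB matches, and the Cxcl1 window held 2 that overlap. Windows were found for 16 of the 20 genes that passed the filter, 18 windows in all. TATAAA was in 7 of the 18 and in 12.4% of all 32851 windows, GGGCGG in 5 and in 32.7%, and the NF-κB consensus in 5 (Ackr2, Ccl9, Cxcl1, Cxcl2 and Cxcl10) and in 7.25%. Of the 5 genes with the NF-κB letters, edgeR called Ackr2 and Cxcl1 higher and Ccl9 lower, and Cxcl2 and Cxcl10 were not called, while DESeq2 called Ackr2 alone. Letters in a window describe the sequence and show no binding.

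Cxcl9 and Cxcl10 are interferon-induced attractants of T cells and lie 25.3 kb apart on chromosome 5. Cxcl9 (ENSMUSG00000029417.9) had 25.2 and 21.9 CPM in DPPIV- FAPs and 15.6 and 15.1 CPM in DPPIV+ FAPs, and the populations did not overlap. Its log2FC was -0.62 ± 0.11 (edgeR adjusted p = 1.37e-07), and DESeq2 gave an adjusted p of 0.0156. Without the DPPIV+ library of mouse 2, in a fit with no mouse term, edgeR's adjusted p was 0.0533. Cxcl10 (ENSMUSG00000034855.13) had 25.4 and 21.8 CPM against 29.5 and 22.6 CPM, which overlap (log2FC 0.14 ± 0.10, edgeR adjusted p = 0.303). Cxcl10 shares 133 exon bases on the opposite strand with Art3, and Cxcl11, the third ligand, had at most 2 reads.

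Cxcl1 and Cxcl2 attract neutrophils through CXCR2. Cxcl1 (ENSMUSG00000029380.11, chromosome 5, 90891241 to 90893115) had 132 CPM in DPPIV- FAPs of mouse 1 and 130 CPM in those of mouse 2, against 193 and 122 CPM in DPPIV+ FAPs. Only the DPPIV+ library of mouse 1 stood out, and the log2 ratio was 0.55 in mouse 1 and -0.088 in mouse 2. edgeR called Cxcl1 higher (log2FC 0.24 ± 0.07, adjusted p = 0.00178), but edgeR with robust moderation gave an adjusted p of 0.399 and DESeq2 0.885. Without the mouse term, edgeR's adjusted p was 0.422. In such fits with 1 library left out, the log2FC was -0.10 without the DPPIV+ library of mouse 1 and 0.56 without that of mouse 2. It was 0.28 without the DPPIV- library of mouse 1 and 0.25 without that of mouse 2. Cxcl2 (ENSMUSG00000058427.10) was highest in the DPPIV+ library of mouse 1, with 7.26 and 4.70 CPM in DPPIV- FAPs against 11.8 and 4.72 CPM. It was not called (log2FC 0.41, edgeR adjusted p = 0.0677). It matches Cxcl3 at 98.3% identity over 116 bases, and Cxcl3 had at most 1 read.

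Ccl11, eotaxin-1, attracts eosinophils through CCR3 and was the most abundant CC ligand. It had 709 and 601 CPM in DPPIV- FAPs and 579 and 521 CPM in DPPIV+ FAPs. The populations did not overlap, although the gap was about as wide as that between the mice in DPPIV- FAPs, and the fitted log2FC was -0.25 ± 0.07 (edgeR adjusted p = 0.00144, DESeq2 0.0327). Without the mouse term, edgeR's adjusted p was 0.183. In fits with no mouse term and 1 library left out, it was 0.264 without the DPPIV+ library of mouse 1, 0.589 without that of mouse 2 and 0.584 without the DPPIV- library of mouse 1. Ccl11 (ENSMUSG00000020676.2) lies on chromosome 11 from 82057823 to 82062955.

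Ccl2, Ccl7 and Ccl8 attract monocytes and are encoded beside Ccl11. Ccl7 (ENSMUSG00000035373.2, chromosome 11, 82045712 to 82047525) had 38.8 and 41.3 CPM in DPPIV- FAPs and 59.9 and 56.7 CPM in DPPIV+ FAPs. It was higher in both mice (log2FC 0.54 ± 0.07, edgeR adjusted p = 2.37e-12, DESeq2 0.00133). Ccl2 (ENSMUSG00000035385.5), 10.1 kb away, had 36.7 and 46.0 CPM against 46.1 and 42.9 CPM, and was not called (log2FC 0.11 ± 0.08, edgeR adjusted p = 0.296). Ccl8 (ENSMUSG00000009185.2) was counted 141 and 82 times in DPPIV- FAPs and 168 and 143 times in DPPIV+ FAPs. Its log2FC was 0.66 ± 0.18, with an adjusted p of 0.00125 in edgeR and 0.159 in DESeq2. The call on Ccl8 was also lost without the mouse term (edgeR adjusted p = 0.129) and, in such fits, without the DPPIV+ library of mouse 1 (0.418), without that of mouse 2 (0.190) or without the DPPIV- library of mouse 2 (0.412).

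**Figure D4:**
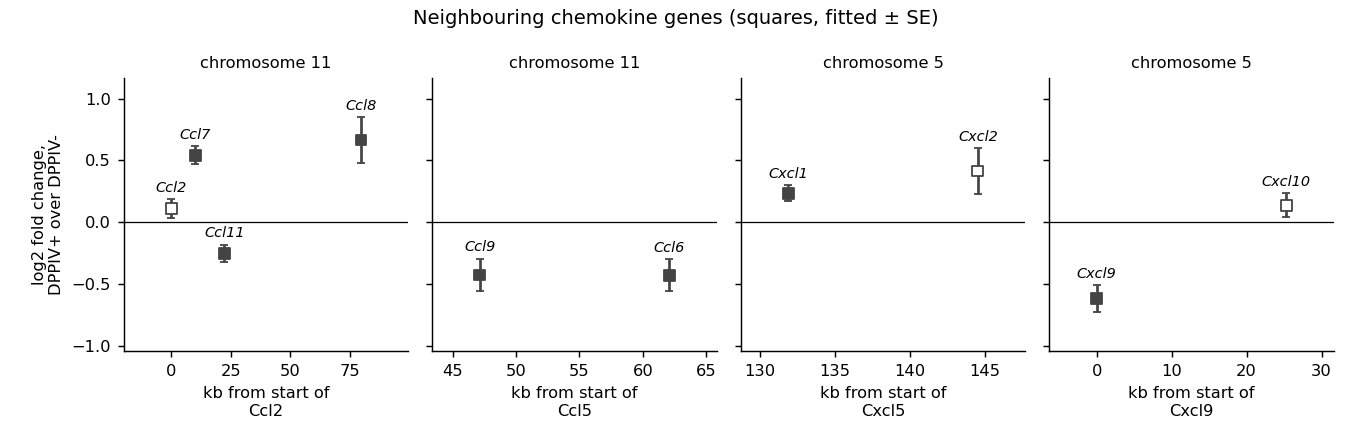
Fitted log2FC with its standard error (vertical) against distance in kb from the first chemokine gene of each chromosomal cluster (horizontal), for the 4 clusters with at least 2 tested genes. Filled squares had an edgeR adjusted p under 0.05. In the first panel Ccl7 and Ccl8 lie above 0 and Ccl11 between them lies below, and in the last Cxcl9 lies below 0 and Cxcl10 does not.

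In all, 27 of the genes lie in 7 clusters, joined where neighbours are under 150000 bases apart. In the cluster of Ccl2, edgeR called Ccl7 and Ccl8 higher and Ccl11, between them, lower, with the calls on Ccl8 and Ccl11 lost in the fits given above. Its span of 270 kb rests on GENCODE's end of Ccl1 at 82305690, where RefSeq ends that gene at 82179812. Ccl9 and Ccl6 lie side by side in another cluster on chromosome 11 and had nearly the same values.

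Ccl6 and Ccl9, mouse ligands of CCR1 made mainly by myeloid cells, were highest in the DPPIV- library of mouse 1. Ccl6 (ENSMUSG00000018927.3) had 21.6 and 11.1 CPM in the DPPIV- FAPs of the 2 mice and 14.5 and 9.44 CPM in DPPIV+ FAPs. Ccl9 (ENSMUSG00000019122.8) had 20.6 and 11.2 CPM against 14.4 and 9.11 CPM. The populations overlapped for both, and the mice differed more than the populations. edgeR called both lower (log2FC -0.43 for each, adjusted p = 0.00413 and 0.00492), while DESeq2 gave adjusted p-values of 0.319 and 0.307. Without the mouse term, edgeR's adjusted p was 0.425 for Ccl6 and 0.418 for Ccl9. In fits with no mouse term and 1 library left out, the log2FC turned to 0.11 and 0.065 without the DPPIV- library of mouse 1. They kept their sign without the DPPIV+ library of mouse 1 (edgeR adjusted p = 0.259 and 0.215) and without that of mouse 2 (0.844 and 0.862), but not the call.

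The markers of macrophages, of other leukocytes and of blood endothelium followed the same order of libraries as Ccl6 and Ccl9. The 6 macrophage markers summed to 92.3 and 60.3 CPM in the DPPIV- FAPs of the 2 mice and to 64.9 and 54.3 CPM in DPPIV+ FAPs. The 6 markers of other leukocytes summed to 23.2 and 13.8 CPM against 15.2 and 12.1 CPM, and those of blood endothelium to 72.3 and 39.8 CPM against 40.9 and 35.3 CPM. Of the macrophage markers, 5 passed the filter and 3 were lower in edgeR's test (Adgre1, Csf1r and C1qa), none in DESeq2's, and Timd4 had 3 reads in 1 library. The part of such cells in Ccl6 and Ccl9 was not tested.

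**Figure D5:**
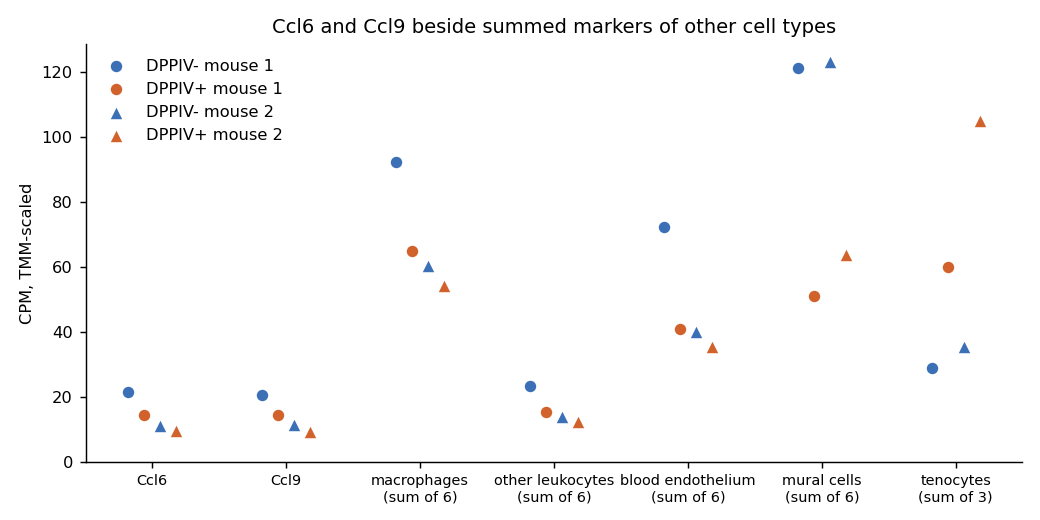
CPM of Ccl6 and Ccl9 and summed CPM of marker lists of other cell types (vertical, from 0) in the 4 libraries, coloured by population and shaped by mouse. From Ccl6 to blood endothelium the DPPIV- library of mouse 1 is the highest and the DPPIV+ library of mouse 2 the lowest, whereas mural markers separate by population and tenocyte markers are highest in DPPIV+ FAPs.

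Ccl27a, a skin chemokine that binds CCR10, stood at the filter, with 45 and 44 reads in DPPIV- FAPs and 39 and 28 in DPPIV+ FAPs (log2FC -0.25 ± 0.29, edgeR adjusted p = 0.567). It is 99.3% identical to Ccl27b over 425 bases and has further near-identical copies, so its reads may be split among them.

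The other 23 genes did not reach the filter, and 10 of them had 0 reads in every library: Ccl1, Ccl17, Ccl20, Ccl21a, Ccl21b, Ccl21c, Ccl26, Ccl27b, Cxcl15 and Cxcl17. No read allows up to 3 counts, or 0.143 to 0.167 CPM depending on the library (counting error only). For Ccl21 and Ccl27, reads that fit several copies may have been dropped. They may also have been counted under near-identical copies with their own symbols, whose reads are not given here. A further 3 genes, Cxcl3, Cxcl11 and Xcl1, had fewer than 5 reads in each library. The remaining 10 had at least 5 reads in some library.

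Ccl19, a CCR7 ligand of lymphoid stroma, had 18 and 22 reads in DPPIV- FAPs and 10 and 74 in DPPIV+ FAPs, so a single library held most of them. In fits without the filter or with a minimum of 10 counts in every library, edgeR called it higher (log2FC 1.02 and 1.05, adjusted p = 0.0432 and 0.00941), although it was lower in mouse 1. Of the 4 lymphatic markers, Prox1 had the most reads in that library, 27 against 9 to 20 in the others, and Flt4 the fewest, 18 against 36 to 44. Pdpn was higher in DPPIV+ FAPs (log2FC 0.35, edgeR adjusted p = 1.11e-06), and Ccl21a had no read under its own symbol. The part of lymphatic cells in Ccl19 was not tested, and the Ccl19 transcript has near-identical copies in the genome. Ccl25 had 29 and 42 reads against 25 and 35, and Ccl28 had 17 and 10 against 12 and 12. Of the myeloid attractants, Ccl3 had 12 and 12 reads in DPPIV- FAPs and 20 and 17 in DPPIV+ FAPs, Ccl4 had 31 and 12 against 13 and 4, and Ccl5 had 13 and 9 against 7 and 5. Cxcl5, a CXCR2 ligand, had 9 and 15 reads against 0 and 4. Ccl12, Ccl22 and Ccl24 had at most 6, 10 and 16 reads. In edgeR's fit without the filter, Ccl19 was the only gene of these 23 that was called, so at this depth no difference was detectable for the others.

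The conventional receptors were nearly silent: of 19, only Ccr2 and Cxcr4 passed the filter, neither was called, and 14 had fewer than 20 reads in each library. Cxcr4, the signalling receptor of CXCL12, had 151 and 53 reads in DPPIV- FAPs and 59 and 68 in DPPIV+ FAPs (log2FC -0.43, edgeR adjusted p = 0.150). Ccr2 had 110 and 57 reads against 98 and 43, lower in mouse 2 in both populations.

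Of 60 pathway genes, 41 passed the filter, with 16 higher and 13 lower in edgeR's test and a median log2FC of -0.04. DESeq2 called 10 higher and 8 lower. Over all genes, edgeR called 33.0% and DESeq2 16.6%. Of 9 peptidases that can cut chemokines, 8 passed the filter, with a median log2FC of 0.05. Of these, edgeR called 4 higher and 3 lower, and DESeq2 2 higher and 2 lower. Among them, Dpp4 itself was given 1879 and 776 reads in DPPIV- FAPs and 13106 and 10476 in DPPIV+ FAPs, a difference that the sort selected. Cpd, which encodes carboxypeptidase D, rose (log2FC 0.44, edgeR adjusted p = 6.63e-10), and Mmp9 fell (log2FC -1.17, edgeR adjusted p = 3.12e-11, and 0.0912 without the mouse term). Among related ligands and receptors, Cmklr1, the chemerin receptor, fell (log2FC -0.85, edgeR adjusted p = 3.52e-34) and Rarres2, which encodes chemerin, rose (0.64, 8.76e-20). Mif, a cytokine that also binds CXCR4, was lower (log2FC -1.01, edgeR adjusted p = 2.27e-15).

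The 23 genes of the NF-κB and interferon list, which all passed the filter, did not move together: 9 were higher, 6 lower and 8 not called, with a median log2FC of 0.05, while DESeq2 called 5 higher and 4 lower. The adhesion molecules Icam1 and Vcam1 fell with Cxcl14 and Cx3cl1 (log2FC -1.32 and -1.77, edgeR adjusted p = 2.15e-81 and 3.37e-121). Irf7, an interferon response factor, rose (log2FC 0.96, edgeR adjusted p = 1.03e-44), as did Nfkbia, an inhibitor of NF-κB (0.62, 7.09e-19). The cytokine receptor genes Il1r1 and Ifngr1 were lower (log2FC -0.60 and -0.42, edgeR adjusted p = 2.32e-18 and 6.96e-09). Of 8 immediate early genes, which respond to tissue digestion, edgeR called 6 lower and 1 higher in DPPIV+ FAPs, with a median log2FC of -0.37. Cxcl1 and Cxcl2 are also induced by tissue handling, and its part in their values was not tested.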

How the data were processed

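RNA sequencing of sorted DPPIV- and DPPIV+ FAPs gave 4 libraries, a pair per mouse. Per the labels and the methods, the authors demultiplexed paired-end reads with bcl2fastq 2.20, aligned them to mm10 with STAR and deposited raw counts per gene symbol, with no normalization or filter. The labels name the NEBNext Ultra II Stranded kit and the methods TruSeq Stranded mRNA. The annotation release and the strand setting of the counting are not given in the sources used here, so reads of genes that overlap could not be separated.

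From these counts, library sizes were scaled by TMM (edgeR 4.0.16, R 4.3.3), genes with 2 CPM in at least 2 libraries were kept (11588), and the populations were compared with edgeR's quasi-likelihood F test, two-sided, with mouse and population in the model and Benjamini-Hochberg adjustment over all genes kept, at 0.05. With 1 residual degree of freedom per gene and infinite prior degrees of freedom, every gene took the spread of genes of its abundance, so that small p-values can go with mice that differ. A standard error is the log2 fold change over the square root of F. Ratios per mouse used a prior count of 0.125. The labels give both libraries of a mouse the same animal number, which pairs them, and the difference between the mice correlated at 0.434 between the populations across genes, which are not independent. Alternatives were DESeq2 1.42.0, no mouse term, RLE and upper-quartile scaling, other filters, robust moderation, a test against 1.5-fold, a threshold of 0.01 and each library or mouse left out. Simulated counts were tested first: edgeR called 91 of 96 genes changed 2-fold (1 on the log2 scale) with 19 false calls among 11296 unchanged genes, and DESeq2 called 82 with 1. The simulated spread depended on abundance alone and the mouse effect was the same in both populations, as the edgeR fit assumes. These false calls are therefore no measure of those on real genes whose spread is wider.

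Positions, exon lengths and overlaps are from GENCODE M21 (GRCm38), similar transcripts from BLAST 2.17.0 (minimum 97% identity and 50 bases), and promoters from RefSeq. Exon length counts every base in an exon of any transcript of the gene. All 43 genes are accounted for. Those past the threshold or over 20 CPM in a library are given with CPM, fold change and adjusted p, and those under the filter are named where a library has at least 5 reads. Other genes come from fixed pathway and marker lists. The members and lists were chosen with earlier results of these data known.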

Additional observations from a re-analysis of the deposited data

How the results depend on the processing

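With 2 mice, the log2 fold changes of the 20 genes that passed the filter kept their direction under every alternative with all libraries, but the number called did not. Of the 43 genes, 8 were higher and 8 lower in the fit reported. A test against a 1.5-fold change called 5 higher and 4 lower, by its own construction. Without the mouse block, 5 were lower and 6 higher, since Ccl6, Ccl9 and Ccl11 were no longer called lower, nor Ccl8 and Cxcl1 higher. With 1 library left out and no mouse term, 6 to 7 were higher and 4 to 8 lower. For the pathway genes, 16 were higher and 13 lower, against 10 and 8 with DESeq2, 9 and 6 without the mouse block, 2 and 5 against 1.5-fold, and 3 to 10 and 5 to 11 with 1 library left out. The cause was not tested.

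Directions turned in fits with a library or a mouse left out. Without the DPPIV- library of mouse 1, the log2 fold change was 0.11 for Ccl6, 0.065 for Ccl9 and -0.044 for Ccl2. Without the DPPIV+ library of mouse 1, it was -0.10 for Cxcl1, -0.35 for Cxcl2 and -0.063 for Cxcl10, and in mouse 2 alone it was -0.088 for Cxcl1. Of the genes not called, Ccl2 stood at -0.099 in mouse 2 alone and Ccl27a at 0.011 in mouse 1 alone. Over all such fits it ran from -0.85 to 0.11 for Ccl6, from -0.81 to 0.065 for Ccl9, from -0.10 to 0.56 for Cxcl1, from -0.35 to 0.97 for Cxcl2, from -0.063 to 0.32 for Cxcl10 and from -0.099 to 0.33 for Ccl2. RLE and upper-quartile scaling, both other filters and a threshold of 0.01 kept each of the 16 calls, and the filters added Ccl19. Over all genes, 1837 were higher and 1989 lower, while DESeq2 called 923 and 995, the fit without the mouse block 1001 and 1119, the 1.5-fold test 436 and 656, and fits with 1 library left out 632 to 1049 and 732 to 1121. The 23 genes under the filter had at most 74 reads in a library.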
